A study of Mus musculus with 6 samples.

Results

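Plasminogen is an inactive precursor that is cut to plasmin, a broad serine protease that digests fibrin and other matrix proteins and can activate growth factors held in the matrix. The cut is made by tissue-type plasminogen activator, encoded by Plat, or by urokinase, encoded by Plau, and the urokinase receptor encoded by Plaur holds urokinase at the cell surface. Serpins are protease inhibitors that trap their target in a covalent complex. Serpine2 (protease nexin-1) and Serpinb2 (plasminogen activator inhibitor 2) act on plasminogen activators, and Serpina3n is a mouse acute-phase relative of human alpha-1-antichymotrypsin. These 6 genes were taken by symbol from the 24147 rows of the gene count tables, and all 6 were found and passed the low-count filter.

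The genes were measured in a mouse model of cataract surgery, in which the fiber cells of the lens are taken out and the capsule stays in the eye with its epithelial cells. There were 3 RNA sequencing libraries from capsules collected 24 h after the operation and 3 from capsules collected at its end (0 h). All came from wild-type C57BL/6 mice 2 months old, and time is the difference the labels give between the groups. Neither is tissue from an unoperated eye. The labels do not say whether a library pools several eyes or mice. The series calls the libraries biological triplicates, and p-values measure the spread between them.

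Libraries held 8069314 to 9249248 gene counts at 24 h and 8734906 to 10862573 at 0 h, and 3 counts in a library corresponded to 0.317 to 0.384 CPM (a gene's counts scaled to a common library total) at 24 h and 0.301 to 0.366 CPM at 0 h. Of 13956 genes tested across the 2 times, 28.2% were called at an adjusted p under 0.05, with 15.2% higher (2125 genes) and 13% lower (1817 genes) at 24 h. Without 0 h replicate 3 there were 1676 higher and 1041 lower calls among 14337 genes. The lens crystallin genes Cryaa and Cryab were the most abundant of the lens epithelial markers. The summed CPM of those 6 markers, mostly from Cryaa and Cryab, was 53439 to 66688 at 24 h and 85573 to 144843 at 0 h. Of the 6, Foxe3 and Cryab were called lower. Cryaa, Pax6, Cdh1 and Gja1 were not called (adjusted p = 0.0746, 0.0946, 0.833 and 0.713), so the sum does not stand for all 6. In such tissue, fewer cells of a type and less RNA per cell cannot be told apart.

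Of the 6 genes, 5 were called higher at 24 h and 0 lower, against the 15.2% of all genes called higher. Plau, Plaur and Serpinb2 did not reach the low-count filter in all 3 libraries at 0 h and were tested because of their 24 h reads, so 3 of the 5 calls could hardly have gone the other way and are not read against that share. In the same 5 genes every 24 h library lay above every 0 h library, which was so for 22.9% of all genes tested. The same limit holds here for Plau, Plaur and Serpinb2, which are not read against this share either. Plat, Plau, Plaur, Serpinb2 and Serpina3n rose, by 8.74-fold for Plat and by 283-fold for Plaur in the fit, while Serpine2 was not called. On the log2 scale the 6 had a median change of 4.32, against -0.03 over all genes tested, and that median is under the same limit.

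**Figure D1:**
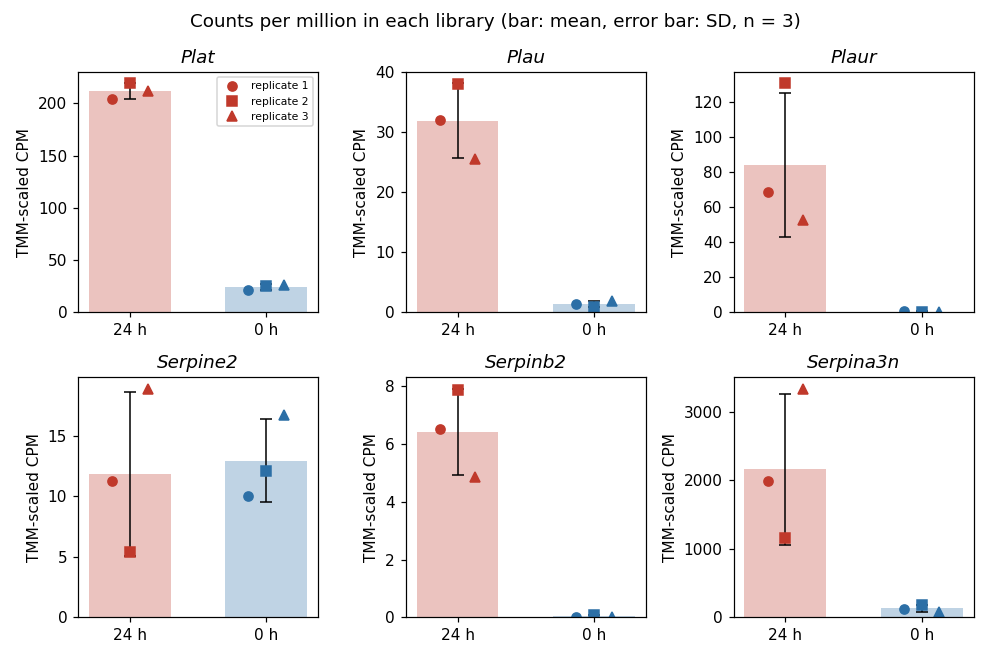
Counts of each gene scaled to a common library total (CPM) by the trimmed mean of M-values (TMM), in each library at 24 h (left, red) and 0 h (right, blue), with 1 panel a gene. Points are libraries with a symbol for each replicate number, which does not pair the times, bars are means and error bars are SD (n = 3). The 24 h points lie above all 0 h points in each gene but Serpine2.

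Plat (chromosome 8, 22757744 to 22782848, plus strand) was the activator gene with more RNA at both times. It had 204, 219 and 212 CPM in 24 h replicates 1 to 3, against 21.2, 25.2 and 26.2 CPM in 0 h replicates 1 to 3. The 24 h libraries lay close together, with a coefficient of variation of 3.53%, and none came near the 0 h range. The means were 212 ± 7.48 CPM at 24 h and 24.2 ± 2.64 CPM at 0 h (SD, n = 3 each), a log2 fold change of 3.13 ± 0.14 (SE; 95% interval 2.80 to 3.46, adjusted p = 1.13e-05). By p-value it ranked 10 among the 13956 genes tested.

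Plau (chromosome 14, 20836662 to 20843388, plus strand), the urokinase gene, was low at 0 h. Its CPM were 32.0, 38.1 and 25.6 in 24 h replicates 1 to 3, against 1.30, 0.802 and 1.83 in 0 h replicates 1 to 3. The 0 h values rest on 13, 8 and 15 reads. The groups did not overlap, and the log2 fold change was 4.61 ± 0.32 (SE; 95% interval 3.88 to 5.34, adjusted p = 5.71e-05), or 24.4-fold.

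Plaur (chromosome 7, 24462500 to 24475873, plus strand), the receptor gene, had the largest change of the 6. It had 538, 1230 and 499 reads in 24 h replicates 1 to 3, against 5, 2 and 1 reads in 0 h replicates 1 to 3. On the CPM scale these were 68.8, 131 and 52.8 at 24 h, against 0.501, 0.200 and 0.122 at 0 h. All 24 h libraries were far above the 0 h libraries, and 24 h replicate 2 was the highest by a wide margin. The log2 fold change was 8.15 ± 0.54 (SE; 95% interval 6.92 to 9.37, adjusted p = 4.56e-05), the rise that ranked 16 among all genes tested. The fitted value rests on 8 reads at 0 h and was 8.91 without 0 h replicate 1, which held 5 of them.

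Serpinb2 (chromosome 1, 107511423 to 107525600, plus strand) was all but undetected in fresh tissue and low at 24 h. There were 51, 74 and 46 reads in 24 h replicates 1 to 3, and 0, 1 and 0 reads in 0 h replicates 1 to 3. Scaled and summed, the 24 h reads were 180 times those at 0 h, and counting error alone allows 31.9 to 7165 times (95%). At 24 h the mean was 6.41 CPM (n = 3), and the adjusted p was 0.000367. The fitted log2 fold change of 7.03 depends on the single read of 0 h replicate 2 and was 8.85 without that library and 6.36 with limma-voom. In GENCODE M21 it shares 291 exonic bases on the same strand with Serpinb10, which had 4 reads at 24 h and 0 at 0 h.

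The promoters of Plaur and Serpinb2 are shown because these genes had the largest rises of the 6 and both hold the AP-1 motif. They are the 250 bases before the start site on GRCm38.p6 (RefSeq), written 5′ to 3′ along the gene, at chr7:24462233-24462482 and chr1:107511173-107511422, both on the plus strand, with motif matches in capitals.
Plaur: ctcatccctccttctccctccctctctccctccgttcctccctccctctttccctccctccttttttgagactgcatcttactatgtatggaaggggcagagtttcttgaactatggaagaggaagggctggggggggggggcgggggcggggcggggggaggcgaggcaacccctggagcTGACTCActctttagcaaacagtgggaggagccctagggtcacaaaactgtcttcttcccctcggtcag
Serpinb2: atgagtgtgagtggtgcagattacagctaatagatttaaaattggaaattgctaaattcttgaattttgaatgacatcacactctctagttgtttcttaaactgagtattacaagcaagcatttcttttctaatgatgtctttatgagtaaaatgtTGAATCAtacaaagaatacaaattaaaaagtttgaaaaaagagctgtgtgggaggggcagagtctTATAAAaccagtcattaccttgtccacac
The capitals mark TGACTCA from 69 bases before the start site in Plaur, and TGAATCA from 94 bases and TATAAA from 29 bases before it in Serpinb2. The table has a second start for Serpinb2, at 107511510, whose window also holds TTCCAAGAA, a STAT match. The letters searched on both strands were TGANTCA for AP-1, TGACGTCA for the cAMP response element (CRE), TTCNNNGAA for STAT, TATAAA for a TATA box, and the NF-kB consensus. Among 32851 mouse promoters of the same length, 6.75% held the AP-1 letters, 1.55% the CRE, 7.02% the STAT, 7.25% the NF-kB and 12.4% the TATA letters. The table holds promoters for 4 of the 6 genes. Those of Serpine2, with 78.8% G and C, and Serpina3n held none of these letters. A match is a description of the letters and not a bound site.

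Serpine2 (chromosome 1, 79794321 to 79858665, minus strand), which encodes an inhibitor of thrombin and of both plasminogen activators, was not called. It had 11.3, 5.42 and 18.9 CPM in 24 h replicates 1 to 3, against 10.02, 12.1 and 16.7 CPM in 0 h replicates 1 to 3. The 24 h libraries lay on both sides of the 0 h range, with 24 h replicate 2 below it and 24 h replicate 3 above it. The log2 fold change was -0.12 ± 0.42 (SE, adjusted p = 0.86), and its 95% interval of -1.07 to 0.83 spans a fold of 0.475 to 1.78, so a change of moderate size in either direction was not detectable with these libraries. The estimate had the other sign without 24 h replicate 2 (0.23) or 0 h replicate 3 (0.12), and was not called in either case.

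Serpina3n (chromosome 12, 104406708 to 104414329, plus strand) was the most abundant of the 6 at both times and varied most between the 24 h libraries in absolute level. It had 1997, 1154 and 3340 CPM in 24 h replicates 1 to 3, against 127, 187 and 81.9 CPM in 0 h replicates 1 to 3. The groups did not overlap, and 24 h replicate 3 was the highest library. The means were 2164 ± 1103 CPM at 24 h and 132 ± 52.7 CPM at 0 h (SD, n = 3 each), and the log2 fold change was 4.03 ± 0.46 (SE; 95% interval 2.99 to 5.08, adjusted p = 0.000504), or 16.4-fold.

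**Figure D2:**
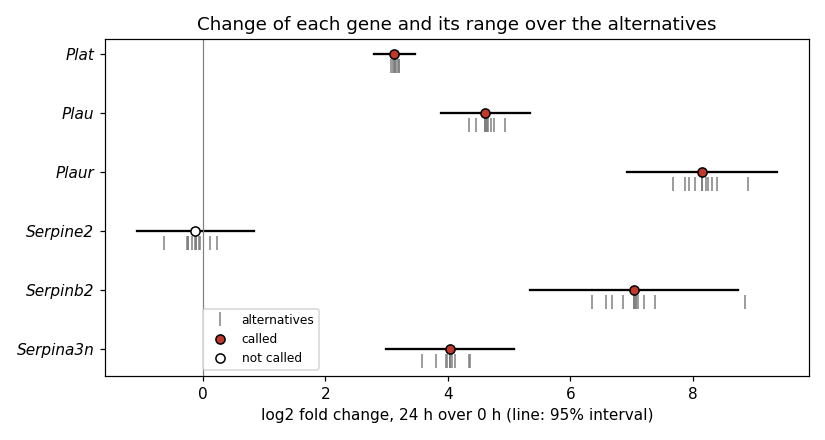
Log2 fold change of each of the 6 genes at 24 h over 0 h (circles, red where called, with 95% intervals from the edgeR fit), and the same value under the 13 alternatives (grey ticks). The called genes stay above 0 under each alternative, and the ticks of Serpine2 run from -0.64 to 0.23.

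Levels of different genes were compared as TMM-scaled CPM per kilobase of the deposited gene length (RPKM). At 24 h Serpina3n had a mean level of 1038 RPKM, followed by Plat at 83.6, Plaur at 60.2, Plau at 13.6, Serpine2 at 5.77 and Serpinb2 at 3.13 RPKM. In that order the libraries of Plat and Plaur overlapped, as did those of Serpine2 and Serpinb2, and the other neighbours did not. At 0 h the order was Serpina3n at 63.3, Plat at 9.57, Serpine2 at 6.30, Plau at 0.56, Plaur at 0.197 and Serpinb2 at 0.0163 RPKM, with the libraries of Plau and Plaur overlapping. The mean of Serpine2 thus stood next below that of Plat at 0 h and below those of Plat, Plaur and Plau at 24 h, where Plau and Serpine2 were closest in replicate 3 (10.9 and 9.21 RPKM).

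Ratios of per-length counts within a library do not depend on how libraries are scaled. Plat exceeded Plau by 5.91, 5.32 and 7.66 times in 24 h replicates 1 to 3, against 15.1, 29.1 and 13.3 times in 0 h replicates 1 to 3, so the excess of the tissue-type gene was smaller at 24 h. The ratio of Plau to its receptor gene Plaur was 0.277, 0.174 and 0.289 in the 24 h libraries, against 1.55, 2.38 and 8.94 in the 0 h libraries, the last of which rests on 1 Plaur read. By these ratios receptor RNA was above ligand RNA in each 24 h library and below it in each 0 h library. The order at 0 h is uncertain, since it rests on 5, 2 and 1 Plaur reads and 13, 8 and 15 Plau reads in replicates 1 to 3. The ratio of Plat to the inhibitor gene Serpine2 was 14.7, 32.8 and 9.09 at 24 h, against 1.72, 1.69 and 1.27 at 0 h. Plau was above Serpine2 at 24 h, with ratios of 2.49, 6.17 and 1.19, and below it at 0 h, with ratios of 0.114, 0.058 and 0.096. None of these 4 ratios overlapped between the times, and an exact two-sided permutation test gave p = 0.1 for each (0.1 adjusted over the 4), the smallest p that 3 against 3 libraries allow.

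**Figure D3:**
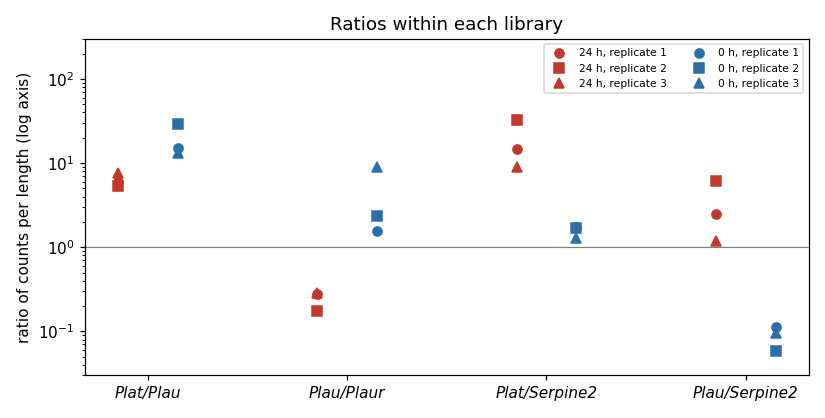
Ratio of counts per length of 2 genes within each library (log axis), at 24 h (red, left of each pair) and 0 h (blue, right), with a symbol for each replicate number. The ratios of Plau to Plaur lie below 1 at 24 h and above 1 at 0 h, and those of Plau to Serpine2 lie above 1 at 24 h and below 1 at 0 h.

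The other genes of the plasminogen system were taken as a list of 28, of which 17 passed the low-count filter. Of the 17, 7 were called higher (41.2%) and 3 lower (17.6%), against 15.2% and 13% of all genes tested. The median log2 fold change of the list was 0.11. Pdgfc did not reach the low-count filter at 0 h and was tested because of its 24 h reads, so its call is not read against that share. Plasminogen itself (Plg) had 1 read in the 6 libraries, and the fibrinogen genes Fga, Fgb and Fgg had 0 in each, where 3 reads over a library would have been at most 0.384 CPM.

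Anxa2, whose protein forms a complex with S100a10 that binds plasminogen and tissue-type activator, rose 5.94-fold to 894 ± 157 CPM at 24 h, against 150.5 ± 32.0 CPM at 0 h (SD, n = 3 each, adjusted p = 0.000168). S100a10 rose 2.81-fold to 144 ± 33.7 CPM at 24 h, against 51.2 ± 12.6 CPM at 0 h (SD, n = 3 each, adjusted p = 0.00225). Plgrkt, a membrane receptor for plasminogen, was not called (adjusted p = 0.76), with 7.59 ± 1.24 CPM at 24 h, against 8.49 ± 3.07 CPM at 0 h (SD, n = 3 each). Thbs1, a matrix protein that binds plasminogen, rose 11.1-fold (adjusted p = 0.000754). On the log2 scale this was 3.47, and it was 2.79 with 24 h replicate 3 left out. The integrin genes Itgb1 and Itgav rose 1.88-fold and 1.62-fold, and Pdgfc, whose product tissue-type activator cuts, rose 5.49-fold (adjusted p = 0.0466) with 63 reads at 24 h and 12 at 0 h. Lrpap1, the chaperone of LDL receptor-related proteins, fell 2.30-fold (adjusted p = 0.000669), the endocytic receptor gene Lrp2 fell 2.30-fold, and Sorl1, a sorting receptor, fell 1.45-fold (adjusted p = 0.0444). Lrp1, the main clearance receptor for activator and inhibitor complexes, missed the threshold (adjusted p = 0.0641), with 825 ± 233 CPM at 24 h, against 1310 ± 132 CPM at 0 h (SD, n = 3 each). The receptor genes Vldlr, Igf2r and Mrc2 were not called, with log2 changes of 0.11, 0.45 and -0.53 (adjusted p = 0.85, 0.0686 and 0.179). Without 0 h replicate 2 the calls in this list were 4 higher and 2 lower, and against a 1.5-fold change they were also 4 and 2. Eno1, also on the list, did not pass the filter, and 72.2% of the 50-base windows of its transcript occur in transcripts of other genes.

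**Figure D4:**
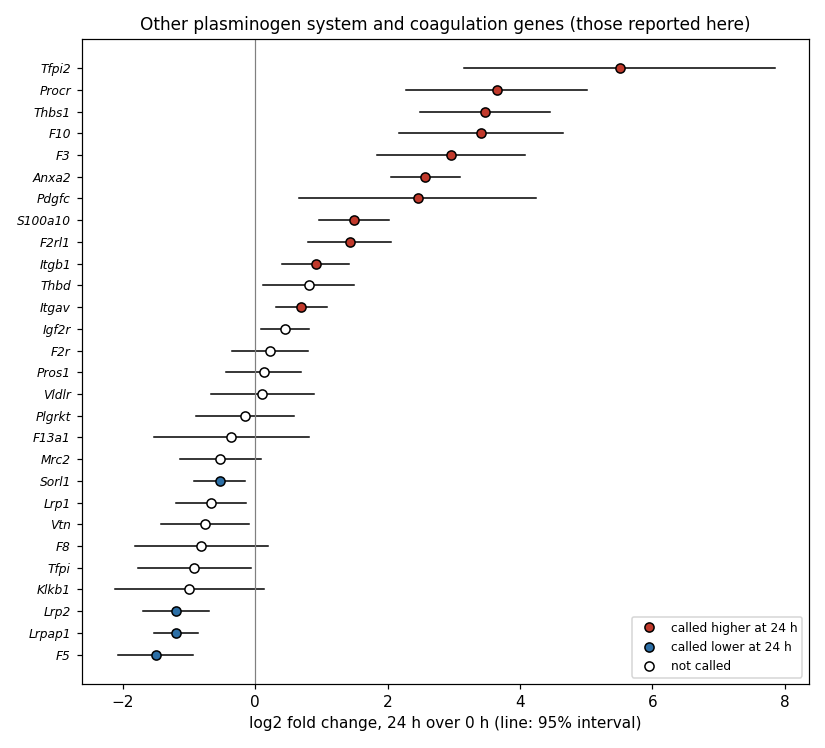
Log2 fold change at 24 h over 0 h with 95% intervals of tested genes of the plasminogen system and coagulation lists that are reported here, red where called higher, blue where called lower and white where not called. Tfpi2 (5.51) stands at the upper end, and F5, Lrpap1 and Lrp2 at the lower end.

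Coagulation genes and their receptors, a list of 20 with 12 tested, were called higher in 5 (41.7%) and lower in 1 (8.33%). The shares of all genes tested were 15.2% and 13%, and the list had a median log2 fold change of 0.51. Procr, F10 and Tfpi2 did not reach the low-count filter at 0 h and were tested because of their 24 h reads. Their calls could hardly have gone the other way, so the higher calls of this list are not read against that share. F3, tissue factor, which starts coagulation, had 89.6, 190 and 40.9 CPM in 24 h replicates 1 to 3, against 12.02, 15.1 and 14.2 CPM in 0 h replicates 1 to 3 (7.77-fold, adjusted p = 0.00287). The highest was 24 h replicate 2, without which the log2 change of 2.96 became 2.25. F2rl1, the protease-activated receptor 2, rose 2.68-fold. Procr, the protein C receptor, and F10, coagulation factor X, rose 12.5-fold and 10.7-fold, to 3.25 and 5.86 CPM at 24 h. Their 0 h values rest on 7 and 15 reads over the group, and the 95% interval of the Procr fold was 4.86 to 32.4. Tfpi2, a Kunitz inhibitor of plasmin, had 57 reads at 24 h and a single read at 0 h, in replicate 1, or 60.1 times as much after scaling (10.4 to 2416 times by counting error). Its fitted log2 change of 5.51 was 7.33 without that library. F5, the gene of coagulation factor V, fell 2.85-fold to 163 ± 43.8 CPM at 24 h, against 463 ± 110 CPM at 0 h (SD, n = 3 each, adjusted p = 0.00274). Thrombin (F2) had 3 reads at 24 h and 1 at 0 h.

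Beside the 3 serpins of the set, the tables hold 60 other serpin genes, 2 of which are also on the plasminogen system list. Only 17 passed the low-count filter, and 24 had 0 reads in all 6 libraries. Of the 17, 10 were called higher (58.8%) and 2 lower (11.8%), against 15.2% and 13% of all genes tested. Their median log2 fold change was 1.08. Serpinb6a, an intracellular inhibitor, rose 2.12-fold (adjusted p = 0.00134), and exons of genes on the opposite strand cover 29.3% of its exonic bases. Serpind1 (heparin cofactor II) fell 2.57-fold to 22.0 ± 4.54 CPM at 24 h, against 56.8 ± 9.26 CPM at 0 h, and Serping1 (C1 inhibitor) fell 1.88-fold. A gene near 0 at 0 h passed the filter only through its 24 h reads and had to be higher, which adds to the higher calls in these lists. Among the serpins this limit holds for Serpina3c, Serpina3f, Serpina3g, Serpina3i and Serpina3m. The higher calls of this list are therefore not read against the 15.2%.

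The other Serpina3 genes lie beside Serpina3n on chromosome 12, between 104112724 and 104414329, and were singled out after their values were seen. There are 10, of which 6 were tested and all 6 were called higher, against 15.2% of all genes tested. All but Serpina3h did not reach the low-count filter in all 3 libraries at 0 h and were tested because of their 24 h reads. Their calls could hardly have gone the other way and are not read against that share. Serpina3h and Serpina3m rose 8.08-fold and 17.8-fold (adjusted p = 0.000876 and 0.00117), to 37.1 ± 16.8 and 23.4 ± 15.1 CPM at 24 h, against 4.57 ± 1.79 and 1.29 ± 0.314 CPM at 0 h (SD, n = 3 each). The other 4, Serpina3c, Serpina3f, Serpina3g and Serpina3i, averaged 3.38 to 17.4 CPM at 24 h and 0.1 to 1.13 CPM at 0 h. All were far below Serpina3n. These genes resemble each other, and 4.25% to 19.1% of the 50-base windows of the 5 with a protein-coding transcript occur in other genes, against 6.90% for Serpina3n and 0% for the other 5 genes of the set. Serpina3h is annotated as a transcribed pseudogene in GENCODE M21, and the deposited row of Serpina3g starts at the same base as that of Serpina3f, so the split of reads among these relatives is uncertain.

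The Serpina3n promoter is shown beside that of Serpina3c, the relative whose 250 bases were most like it of the 4 compared (90.5% identical in a global alignment). They are at chr12:104406458-104406707 on the plus strand and chr12:104153873-104154122 on the minus strand of GRCm38.p6 (RefSeq), written 5′ to 3′ along each gene, and the capitals mark TATAAA, which starts 132 bases before the start site in Serpina3c and is not in the Serpina3n window.
Serpina3n: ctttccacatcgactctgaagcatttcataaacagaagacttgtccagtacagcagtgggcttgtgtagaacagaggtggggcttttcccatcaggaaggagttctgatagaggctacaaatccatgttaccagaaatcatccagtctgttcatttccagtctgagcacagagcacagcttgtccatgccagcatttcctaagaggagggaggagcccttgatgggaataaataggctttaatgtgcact
Serpina3c: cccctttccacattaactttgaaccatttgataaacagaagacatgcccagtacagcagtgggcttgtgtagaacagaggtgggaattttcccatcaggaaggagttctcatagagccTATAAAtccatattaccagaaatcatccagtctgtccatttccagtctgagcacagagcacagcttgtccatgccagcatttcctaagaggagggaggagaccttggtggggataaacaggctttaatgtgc
A shorter stretch compares these with the Serpina3f, Serpina3g and Serpina3i promoters, as the bases that a global alignment set against the STAT match of Serpina3i and its flanks. It lies at chr12:104406575-104406603, chr12:104153974-104154002, chr12:104214413-104214439, chr12:104236104-104236132 and chr12:104263010-104263038 in the order printed, on the minus strand for Serpina3c and the plus strand for the others, and capitals mark the STAT letters.
Serpina3n stretch: caaatccatgttaccagaaatcatccagt
Serpina3c stretch: taaatccatattaccagaaatcatccagt
Serpina3f stretch: tcagttctatTTCCTAGAAatcaccca
Serpina3g stretch: taagttatagTTCCCAGAAatcacccggt
Serpina3i stretch: taagtgcttgTTCCCAGAAatcacccagt
The STAT letters stand in the last 3 and not in Serpina3n or Serpina3c. Whether these letters bear on the level of any of the genes was not tested.

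**Figure D5:**
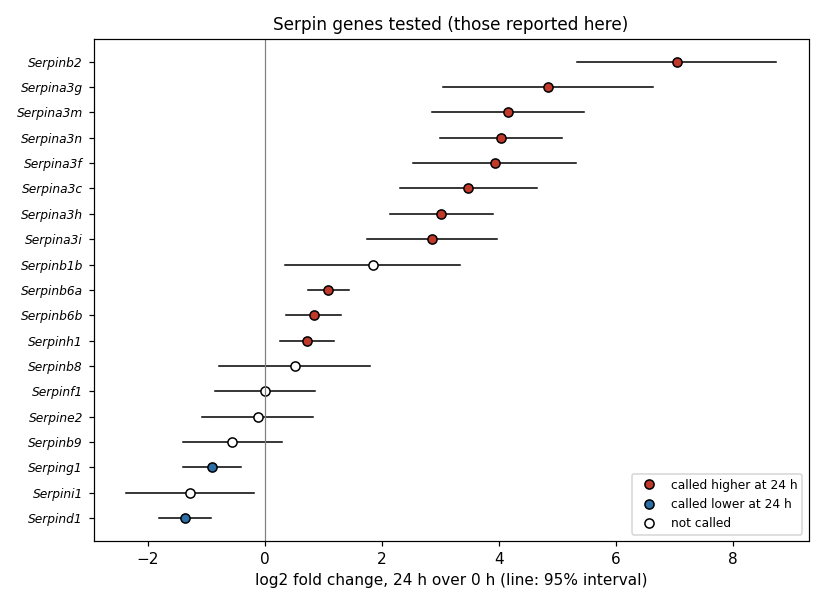
Log2 fold change at 24 h over 0 h with 95% intervals of tested serpin genes that are reported here, red where called higher, blue where called lower and white where not called. Serpinb2 and the Serpina3 genes form the upper part, all at 2.86 or more, and Serpine2 lies near 0.

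Genes whose level over the 6 libraries was most like each member were found by the Pearson correlation of log2 CPM (prior count 2), among tested genes with a mean of at least 10 CPM. Because the libraries fall into 2 times, any gene that rose correlates with any other. For Plat the closest were Slc1a5, Trim47 and Ecd (r = 0.9999, 0.9998 and 0.9989). For Plau they were Sec23b, Slfn2 and Perp (0.999, 0.9985 and 0.9977), and for Plaur Mapkapk3, Csnk2a2 and Ubap2 (0.9989, 0.9984 and 0.9983). For Serpinb2 they were G3bp1, Nfkb2 and Enc1 (0.9993, 0.9982 and 0.9982), and for Serpina3n Nxph3, Ddah1 and Prrc1 (0.997, 0.9953 and 0.995). For Serpine2, which did not separate the times, they were Agtrap, Ptprg and Efna5 (0.9891, 0.9833 and 0.9824).

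Markers of other cells were measured beside these genes. Leukocytes are known to make urokinase, its receptor and several serpins. Of 14 neutrophil markers 13 were found and 6 were tested, all 6 higher, against 15.2% of all genes tested. S100a8, S100a9, Retnlg and Itgam did not reach the low-count filter in all 3 libraries at 0 h. They were tested because of their 24 h reads, so their calls could hardly have gone the other way. The same holds for other markers below that were near 0 at 0 h. The summed level of the 13 was 98.2, 132 and 186 CPM in 24 h replicates 1 to 3, against 6.71, 14.0 and 17.0 CPM in 0 h replicates 1 to 3. Elane had 0 reads in every library, and Ngp, Retnlg and Mmp8 had 0 at 0 h. The neutrophil sum was highest in 24 h replicate 3, where Itgam, Csf3r and Cxcr2 were highest (61.1, 49.7 and 34.6 CPM). S100a8, S100a9 and Retnlg were instead highest in 24 h replicate 2 (14.9, 29.0 and 5.73 CPM), so the markers did not share 1 order. Of the 24 h group, replicate 2 had the most Plau, Plaur and Serpinb2, and replicate 3 had the least of these and the most Serpina3n. Of 13 macrophage markers found, 12 were tested. The 2 higher were Cd68 and Ccr2 (5.85-fold and 20.6-fold), and the 4 lower were Csf1r, Mrc1, Cx3cr1 and Cd163. Ccr2 had 13, 21 and 199 reads in 24 h replicates 1 to 3, against 4, 3 and 4 in 0 h replicates 1 to 3. The macrophage sum overlapped between the times (82.6 to 184 CPM at 24 h, 83.3 to 188 CPM at 0 h) and does not show these opposite changes. The sum of 4 platelet markers was 11.6 to 20.5 CPM at 24 h and 1.60 to 7.44 CPM at 0 h (2 of 3 tested higher). Pf4 was not called (adjusted p = 0.769), and Gp9, not tested, had 0 reads at 24 h and 3 at 0 h. Pigment epithelial markers ranged from 117 to 1167 CPM at 24 h and 182 to 338 CPM at 0 h, with 3 of 8 called higher and 3 lower. Endothelial markers had 23.2 to 45.8 CPM at 24 h and 13.4 to 39.5 CPM at 0 h (2 of 5 tested higher), and stromal markers 174 to 436 CPM at 24 h and 364 to 654 CPM at 0 h (1 of 4 tested higher, 1 lower). Corneal markers had 346 to 690 CPM at 24 h and 742 to 1108 CPM at 0 h (2 of 3 tested higher, 1 lower). Their sum was mostly Aldh3a1, which was called lower, and does not show the rises of Krt12 and Krt5. In 24 h replicates 1 to 3 Krt12 had 74, 2 and 337 reads and Krt5 had 197, 6 and 324, so replicate 2 did not share these rises. Photoreceptor markers had 1047 to 4761 CPM at 24 h and 1930 to 5932 CPM at 0 h (0 of 7 called). Lens fiber markers had 4204 to 5037 CPM at 24 h and 10811 to 17255 CPM at 0 h (7 of 8 lower), and 2 of the 6 lens epithelial markers were lower. The part of these cells in the changes of the 6 genes was not tested.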

How the data were processed

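Per the labels' protocols, capsule RNA was isolated on RNeasy columns, and the libraries are described once with the plain and once with the stranded TruSeq kit. The submitters' processing notes name TopHat2 2.1.0, HTSeq 0.6.1p1 and the mm10 build, and the treatment of strand and of reads with several matches was not given in the sources used here. Per the file headers, the values the authors deposited are raw counts of each gene. Their deposited RPKM column was left aside, and RPKM here was computed from the counts and the length column of the files.

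Counts were filtered with filterByExpr, scaled by TMM and tested by quasi-likelihood in edgeR 4.0.16 under R 4.3.3, 24 h against 0 h, two-sided and without covariates, over 13956 genes, with Benjamini-Hochberg adjustment over all genes and calls at an adjusted p under 0.05. Standard errors are the log2 fold change divided by the root of the F statistic. The biological coefficient of variation was 25.09%. The procedure was tested on simulated data. Counting intervals are exact at 95% and cover counting error only. The alternatives were other scalings, no filter, DESeq2 1.42.0, limma-voom (limma 3.58.1), a 1.5-fold threshold, a replicate block and leaving out each library, and a pseudocount of 0.5 for the ratios.

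The genes, lists and tests were chosen with earlier results of these data known. Named genes are the 6 of the set, the 5 with the lowest p in each list, and the 3 most alike in pattern for each of the 6; others were named after their values were seen, and a few genes that the rule gives are not reported here. The most abundant markers of the cell lists reported here were Cryaa and Cryab, Itgam and Csf3r, Lyz2 and Csf1r, Dct and Tyrp1, Aldh3a1 and Krt5, Kdr and Cdh5, Pdgfra and Pdgfrb, and Itga2b and Pf4. Starts and ends are as deposited (mm10), and strands, exons and 50-base windows are from GENCODE M21 on the same assembly.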

Additional observations from a re-analysis of the deposited data

How the results depend on the processing

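Plat, Plau, Plaur, Serpinb2 and Serpina3n were called higher under each of 13 alternatives, with adjusted p up to 0.00037, 0.00128, 0.00603, 0.00327 and 0.00632. Serpine2 was called under none, with estimates from -0.64 to 0.23 on the log2 scale when 1 library was left out. The plasminogen system list had 10 calls (7 higher, 3 lower), 13 with DESeq2 (8 higher, 5 lower), 12 with a replicate block (7 higher, 5 lower), 6 against a 1.5-fold change, and 6 to 10 when 1 library was left out. Calls over all genes numbered 3942, and 1689 against a 1.5-fold change (1060 higher, 629 lower), and 2717 to 3545 when 1 library was left out. The other serpin and coagulation counts moved by less than 1.5 times, and the 14 other genes given by the naming rule kept their direction and call in all 182 values. The replicate numbers are not stated to pair the libraries, and deviations of same-numbered libraries correlated at 0.087, 0.215 and 0.397. With a replicate block 5 of the 6 genes and 4489 genes in all were called, and not every library correlated best with its own number. The fold of Plaur, Serpinb2, Tfpi2 and Procr is limited by the 8, 1, 1 and 7 reads at 0 h.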

Other observations

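Of the 26 genes called higher among the 6 genes and the 3 lists, 11 were highest in 24 h replicate 2, 12 in 24 h replicate 3 and 3 in 24 h replicate 1. Plat, Plau, Plaur, Serpinb2 and F3 were among those highest in replicate 2, and Serpina3n, Serpina3m, Serpina3f, Serpina3c, Thbs1 and F10 among those highest in replicate 3. Serpine2 was also highest in 24 h replicate 3. These are values of single libraries and were not tested.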
